A study of Homo sapiens with 12 samples.

Results

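253J is an established human cell line from a transitional cell carcinoma of the bladder, and the comparison is between its bead-positive and its bead-negative sorted branch. It covers every gene whose mean normalized read count over the 6 libraries of the line was at least 10, which kept 14189 of the 19423 genes in the table. The 6 libraries are 6 of the 12 in the series, and the other 6 are of A375, a human melanoma line sorted in the same way. Cultured cells were given fluorescent 2.4 µm beads for 24 h and separated by flow cytometry into cells holding at least 1 bead (positive) and cells holding none (negative). Sorting was done in 5 cycles, each after the cells had grown for 5 generations, and cells that changed gate between cycles were discarded. Both branches were exposed to beads, and an unsorted 253J culture was not analysed here. Each branch is 1 selected population with 3 poly(A) RNA-seq libraries, so a difference between the branches that has nothing to do with uptake cannot be told apart from one that does. Nothing in the labels says whether the 3 libraries came from separate cultures, and p-values then measure only the spread between these libraries, which may be technical.

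Epithelial tumour cells are not professional phagocytes, yet many can engulf micrometre-sized particles. The particle is bound at the surface by receptors or by matrix and bridging proteins, the membrane is drawn around it by actin, and the closed vesicle matures by way of Rab GTPases towards the lysosome. Adhesion to neighbours and to the matrix, and the stiffness of the cell cortex, bear on the same membrane and cytoskeleton.

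The recovered depth was 14576506 to 15164567 reads in the positive and 15336696 to 17916519 reads in the negative libraries. The keratins of simple epithelia were abundant in every library, with KRT8 at 7961.9 to 10302.8, KRT18 at 14851.1 to 21858.3 and KRT19 at 6308.8 to 9234.2 normalized reads. The intermediate filament protein vimentin (VIM) stood at 32310 to 39486.5 and the mesenchymal cadherin CDH2 at 3334.3 to 3914.4, while the epithelial adhesion molecule EPCAM was at most 6.1. Of the urothelial markers, the transcription factors PPARG (306.9 to 385.1), FOXA1 (169.6 to 258.3) and GATA3 (14.2 to 26) were measured above the minimum, the last at a low level. KRT7, at 139.7 to 218.1, and KRT8, KRT18, KRT19, VIM, PPARG, FOXA1 and GATA3 did not pass the test between the branches, at adjusted p 0.137 to 0.897, though KRT19 (0.00397, lower) and FOXA1 (0.00849, higher) did with the replicate number as a block. The 4 leukocyte markers PTPRC, CD14, CD68 and CSF1R were at most 9.1, and PTPRC at most 0.9. Of the fibroblast and vascular markers, COL1A2 was listed at 0 throughout and LUM, PDGFRB and VWF were at most 2.1, whereas COL1A1 stood at 242.5 to 305. Of the pigment cell genes, TYR was listed at 0, MLANA was at most 7.1 and DCT at most 20.2, whereas PMEL stood at 56.9 to 113.4 and the transcription factor MITF at 1116.8 to 1192.3. In bulk RNA, fewer cells expressing a gene and less RNA per cell cannot be told apart.

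A total of 155 of the 14189 genes (1.09%) differed between the branches at an adjusted p under 0.05. Of these, 75 (0.529%) rose and 80 (0.564%) fell in positive cells. Here and below, adjusted p-values come from limma on log2(value + 1) with Benjamini-Hochberg adjustment over all 14189 genes unless another tool is named, and levels are normalized read counts as mean ± SD over n = 3 libraries. Most changes were small: 34 genes rose and 25 fell at least 2-fold, and the median log2 fold change was 0.95 among those that rose and -0.74 among those that fell. In all 155 every positive library lay on the same side of every negative one, which was true of 20.2% of all genes tested. The test is sensitive to single libraries. Of the calls, 37 (21 rose, 16 fell) held whichever 1 of the 6 libraries was left out, and the other 118 were lost in at least 1 of these fits. Replicates 1 and 2 of a branch differed little, so a fit without 1 of them still held a close match to it. With them averaged, which leaves fewer samples, 21 of the 155 were called. Some calls said below to hold without any 1 library were lost in that averaged limma fit. Examples are CTGF (adjusted p = 0.0523), CYP24A1 (0.076), CSGALNACT1 (0.0839), NRP2 (0.0839), CHST11 (0.0877) and PTK7 (0.148). The replicate number carried a spread of its own, with replicate 3 of each branch standing apart from replicates 1 and 2. With that number as a block, 1991 genes (14%) were called, 1033 higher (7.28%) and 958 lower (6.75%), and all 155 genes were among them in the same direction. Within replicates 1 and 2 alone, 2977 genes (21%) were called, 1431 higher (10.1%) and 1546 lower (10.9%). For each list count below, the shares over all genes are 1.09% without and 14% with the replicate block.

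**Figure D1:**
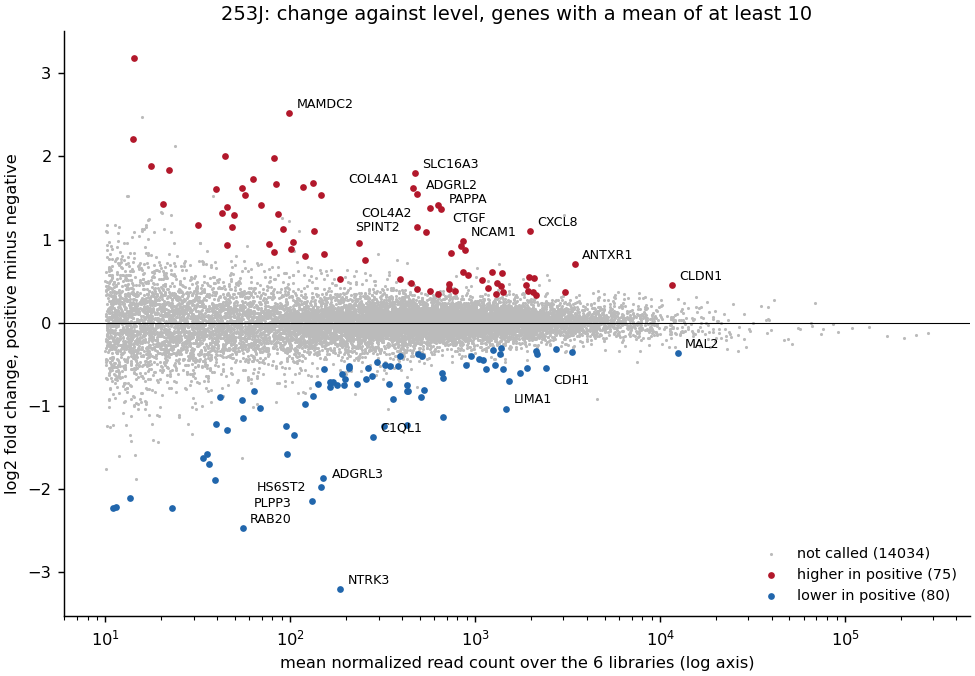
Log2 fold change (positive minus negative) against the mean normalized read count over the 6 libraries of 253J (log axis), 1 point per gene tested. The 75 genes higher in positive cells and the 80 lower ones are coloured, the other 14034 are grey, and the labelled genes except MAL2 are described in the text.

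The basement membrane collagen genes COL4A1 and COL4A2 were about 3-fold and 2.6-fold higher in positive cells. Their chains assemble together into the type IV collagen network on which epithelia rest. COL4A1 (ENSG00000187498; GRCh38 chr13:110148963-110307233, minus strand) stood at 691.8, 689.5 and 705.3 in the positive and at 236.1, 225.9 and 215.7 in the negative replicates 1 to 3. That is a log2 fold change of 1.62 ± 0.07 (SE, adjusted p = 7.04e-05), with every positive library far above every negative one. COL4A2 (ENSG00000134871; chr13:110305812-110513209, plus strand) was at 785.9, 809.7 and 873.8 against 308.3, 307.7 and 328.1, a log2 fold change of 1.38 ± 0.07 (adjusted p = 9.95e-05), and again did not overlap. The genes lie head to head, and the 126 bases between their RefSeq starts (GRCh38.p14, chr13:110307158-110307283, plus strand) are shown because both genes, transcribed away from this stretch in opposite directions, rose together. Capitals mark the only match in it to each of the motifs CCAAT and GGGCGG, searched on both strands.
COL4A1-COL4A2: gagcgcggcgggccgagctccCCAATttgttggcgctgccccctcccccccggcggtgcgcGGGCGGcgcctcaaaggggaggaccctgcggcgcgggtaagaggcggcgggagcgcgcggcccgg
In windows of the same length before the starts of 35116 RefSeq genes, 21.1% hold CCAAT and 34.6% hold GGGCGG.

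Other collagen chains went different ways. Over the collagen list of chains and processing enzymes, 3 of 19 genes tested rose and 2 fell, with a median log2 fold change of -0.07 against 0.0015 over all genes, and with the replicate block 4 rose and 6 fell. Over all genes the called shares were 1.09% without and 14% with the block. COL8A1, a short-chain collagen of vessel and corneal basement membranes, rose 3.96-fold from 33.0 ± 11.3 to 129.4 ± 24.0 (adjusted p = 0.0135). COL6A1, the alpha-1 chain of the beaded-filament collagen VI, fell 2.19-fold from 920.8 ± 199 to 418.3 ± 73.0 (adjusted p = 0.016). In COL6A1 the single libraries were at 360.3, 394.3 and 500.3 in positive and 814.2, 797.4 and 1150.9 in negative cells, so replicate 3 was the highest of each branch. COL27A1, a fibrillar collagen of cartilage, was lower by a smaller margin (815.4 ± 8.05 against 1077 ± 84.4, adjusted p = 0.0352). The calls of COL8A1 and COL6A1 were lost without positive replicate 1 (adjusted p = 0.0919 and 0.0963) or positive replicate 2 (0.1 and 0.116). That of COL27A1 was lost without any 1 of the libraries except negative replicate 3, with adjusted p 0.0156 to 0.201 over the 6 fits.

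Of the 38 other matrix genes tested, 3 rose and 1 fell, with a median of 0.03, and with the replicate block 6 rose and 8 fell. The shares called over all genes were 1.09% and, with the block, 14%. The laminin alpha-1 chain LAMA1, a component of embryonic basement membranes, rose from 1634.1, 1630 and 1816.1 in the negative to 2439, 2345.7 and 2613.2 in the positive replicates (log2 fold change 0.54 ± 0.07, adjusted p = 0.00894). The elastic-fibre glycoprotein fibulin-1 (FBLN1) was at 83.4, 83.3 and 82.2 in positive and at 27.9, 19.3 and 34.1 in negative libraries, a rise of 3.06-fold (adjusted p = 0.0115). Fibrillin-2 (FBN2), a microfibril protein, rose from 30.9 ± 1.72 to 60.1 ± 8.55 (adjusted p = 0.0412). In the opposite direction LTBP1, which tethers latent TGF-beta to the matrix, fell from 22.6 ± 4.72 to 4.53 ± 1.59 (adjusted p = 0.0213), a low level in both branches. Fibronectin (FN1), the main adhesive glycoprotein of provisional matrix, was lower by a log2 fold change of -0.92, with 2717, 2920.2 and 3676.8 against 4972.7, 5042 and 7849.5, and its adjusted p of 0.0561 missed the threshold. With the replicate block FN1 passed at 1.06e-07. FN1 was chosen for mention after its values were seen.

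LAMA1 no longer passed without positive replicate 1 (adjusted p = 0.0709) or negative replicate 2 (0.0567), and that of FBLN1 without positive replicate 1 (0.0795) or 2 (0.0802). The calls of FBN2 (0.0326 to 0.155 over the 6 fits) and LTBP1 (0.0302 to 0.11) were lost without any 1 library other than negative replicate 3.

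Several genes for secreted or surface proteins that touch the matrix or growth factors were among the calls that held without any 1 library. MAMDC2, a secreted proteoglycan, rose 5.74-fold, from 31.8, 33.4 and 21.1 in the negative to 198.9, 172.9 and 135 in the positive replicates (log2 fold change 2.52 ± 0.21, adjusted p = 0.000908). PAPPA, a metalloprotease that cleaves IGF-binding proteins, was at 967.7, 961.5 and 811.9 against 374.8, 356.1 and 297, a rise of 2.67-fold (adjusted p = 0.000466). FGFBP1, which releases fibroblast growth factors from the matrix, rose 3.32-fold to 97.1 ± 5.59 (adjusted p = 0.000812). The anthrax toxin receptor ANTXR1, a collagen-binding surface protein, rose from 2640 ± 193 to 4296 ± 152 (adjusted p = 0.0019). These 4 calls held in every fit that left out 1 library, and no library of one branch reached the other in any of them. With replicates 1 and 2 averaged, PAPPA (adjusted p = 0.0352) and FGFBP1 (0.0431) still passed in limma and ANTXR1 (0.0839) did not.

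HS6ST2, which adds 6-O-sulfate to heparan sulfate, fell 3.92-fold, from 255.3, 252.3 and 197.7 to 54.5, 61.1 and 60.9 (adjusted p = 0.000263). CHST11, a chondroitin 4-O-sulfotransferase, fell 1.89-fold to 249.5 ± 24.1 (adjusted p = 0.003). CSGALNACT1, which starts chondroitin sulfate chains, rose 1.95-fold to 312.1 ± 9.69 (adjusted p = 0.00113). All 3 held without any 1 library. The related genes HPSE (log2 fold change -1.57, adjusted p = 0.0204), CHST15 (-0.71, 0.0135) and PAPSS2 (-0.74, 0.0135) also fell. Each of their calls was lost in 4 of the 6 fits without 1 library. IGFBP7, a secreted IGF-binding protein deposited in vessel walls, fell 1.52-fold from 2101 ± 333 to 1376 ± 70.7 (adjusted p = 0.0331), which only the fit without negative replicate 3 retained (0.00282 to 0.191 over the 6 fits). An estimated 14% of the exon bases of IGFBP7 overlap POLR2B on the opposite strand, and its count is uncertain to that extent because the strand setting of the counting is not known.

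**Figure D2:**
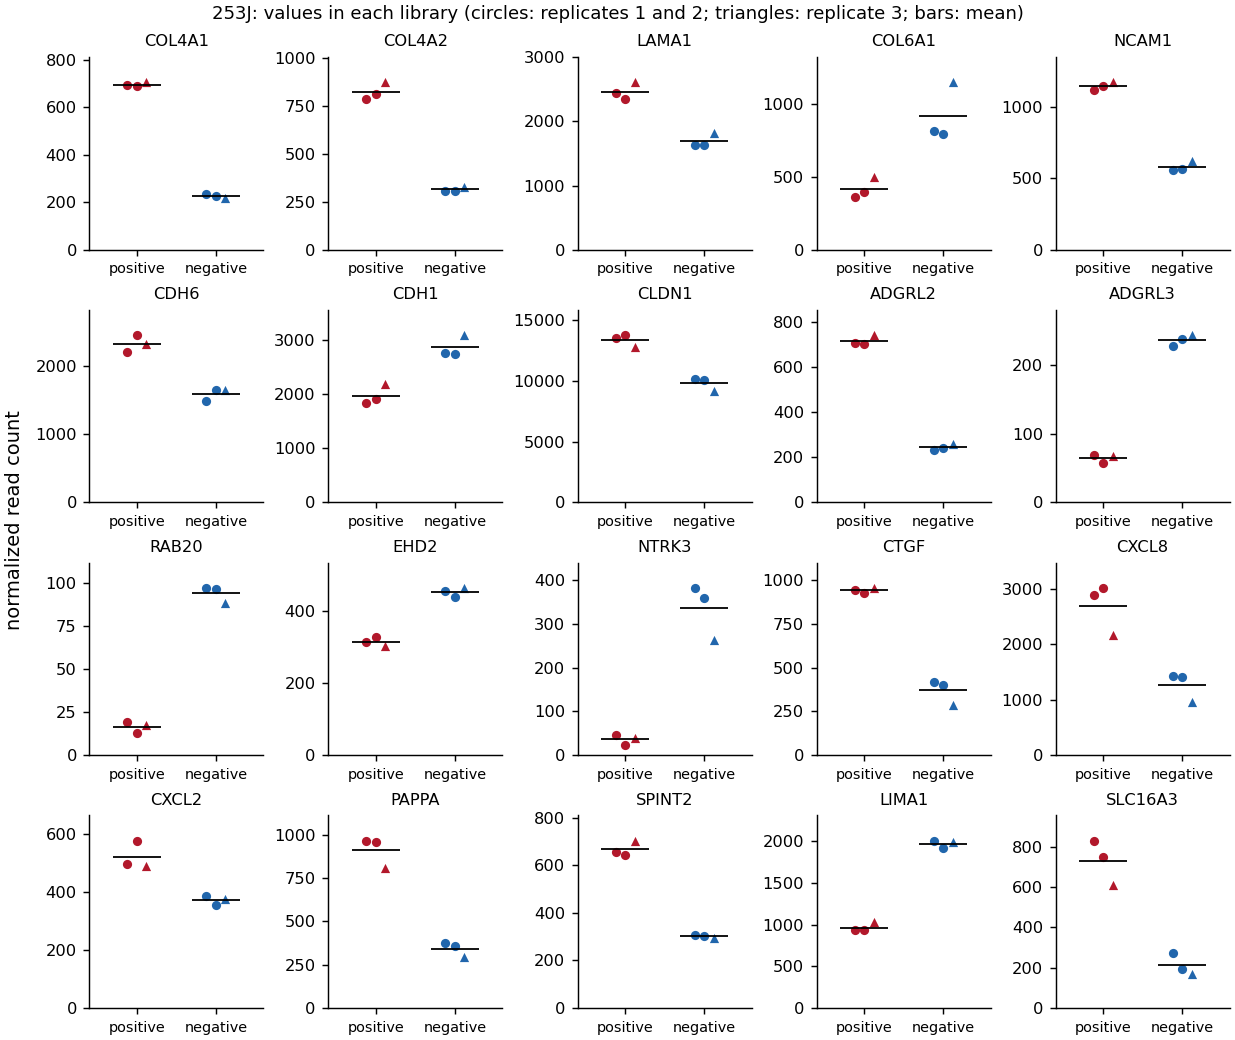
Normalized read counts of 20 genes in the 3 positive (red) and 3 negative (blue) libraries of 253J, with circles for replicates 1 and 2, triangles for replicate 3 and bars for the mean of each branch. Each panel starts at 0, and the branches do not overlap in any of the 20 panels.

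Of 39 cadherin, protocadherin and immunoglobulin-type adhesion genes tested, 4 rose and 2 fell, their median log2 fold change was 0.05, and 8 rose and 3 fell with the replicate block. Over all genes 1.09% were called without and 14% with the block. NCAM1, the neural cell adhesion molecule (ENSG00000149294; chr11:112961247-113278436), rose 1.97-fold, from 553.1, 563.5 and 622.1 in the negative to 1116.3, 1143.8 and 1170.1 in the positive replicates (log2 fold change 0.98 ± 0.07, adjusted p = 0.000281). The lowest positive library lay far above the highest negative one. The type II cadherin CDH6 rose 1.47-fold, from 1481.9, 1645.8 and 1642.5 to 2214.5, 2457.4 and 2325 (adjusted p = 0.00705). CXADR, the coxsackievirus and adenovirus receptor of epithelial tight junctions, rose 1.42-fold to 1281 ± 88.0 (adjusted p = 0.0132). E-cadherin (CDH1), the calcium-dependent adhesion protein of epithelial adherens junctions, went the other way, from 2757.6, 2755.3 and 3099.5 down to 1837, 1905 and 2193.1 (log2 fold change -0.54 ± 0.08, adjusted p = 0.0194). Within each branch replicate 3 had the highest normalized CDH1 count, and the highest positive library stayed below the lowest negative one. PCDH1, a protocadherin of airway and other epithelia, fell 1.30-fold to 1890 ± 98.0 (adjusted p = 0.0328), and the protocadherin PCDH17 rose from 4.67 ± 2.41 to 23.4 ± 2.67 (adjusted p = 0.0352).

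NCAM1 held without any 1 library, and CDH6 was lost only without positive replicate 2 (adjusted p = 0.0681). CXADR (0.00574 to 0.0846 over the 6 fits), CDH1 (0.00947 to 0.149) and PCDH1 (0.0113 to 0.218) were lost without positive replicate 1 or 2 or negative replicate 1 or 2. PCDH17 (0.0157 to 0.217) was lost without any 1 positive library or negative replicate 2.

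Of 27 genes for epithelial keratins and junctions, 2 rose and 1, CDH1, fell, against 5 and 4 with the replicate block. Among all genes tested the called shares were 1.09% and 14%. The tight junction protein claudin-1 (CLDN1) was among the most abundant called genes and rose 1.37-fold, from 10153.4, 10113.9 and 9132.8 to 13574.5, 13786.2 and 12763.6 (adjusted p = 0.0168). SPINT2, an inhibitor of the epithelial serine proteases hepsin and matriptase, rose 2.21-fold, from 304.5, 301.6 and 295 to 656.5, 641 and 703.3 (adjusted p = 0.000204). So in the positive cells a tight junction protein and a protease inhibitor of epithelia were higher while the adherens junction cadherin was lower, and no keratin was called without the block. SPINT2 held without any 1 library, whereas CLDN1 (0.0027 to 0.148) was lost without positive replicate 1 or 2 or negative replicate 2. The gap junction protein connexin 43 (GJA1), picked after seeing its values, rose from 1119 ± 170 to 1685 ± 8.36 (adjusted p = 0.0319), which was lost without any 1 positive library or negative replicate 2 (0.00151 to 0.18).

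The latrophilins are adhesion G protein-coupled receptors that bind teneurins and FLRT proteins on other cells. ADGRL2 (ENSG00000117114; chr1:81306160-81992436) rose 2.92-fold, from 234.1, 241.8 and 260.9 to 707.9, 703.2 and 743.9 (log2 fold change 1.55 ± 0.07, adjusted p = 7.49e-05). ADGRL3 (ENSG00000150471; chr4:61201258-62078335) fell 3.65-fold, from 228.4, 238.3 and 243.8 to 68.4, 56.9 and 68 (log2 fold change -1.87 ± 0.12, adjusted p = 0.000204). These members of 1 receptor family thus differed in opposite directions, each with narrow groups that did not overlap and each in every fit without 1 library. The teneurin TENM3, a ligand of latrophilins, rose 2.15-fold from 85.4 ± 16.2 to 183.3 ± 16.6 (adjusted p = 0.0155), a call lost without positive replicate 1 or 2 or negative replicate 2 (0.00412 to 0.116).

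Of 43 genes for ephrins, semaphorins and axon guidance, which also steer the movement of other cells, 1 rose and 3 fell, against 5 and 7 with the replicate block. The corresponding shares over all genes were 1.09% and 14%. NRP2, a co-receptor for class 3 semaphorins and VEGF-C, fell 2.55-fold, from 166.7, 151.2 and 133.5 to 65.2, 55.9 and 53.8 (adjusted p = 0.00257), and held without any 1 library. The membrane-bound semaphorins SEMA6B (2271 ± 248 to 1557 ± 189, adjusted p = 0.0492) and SEMA5A (336.8 ± 4.99 to 217.4 ± 30.2, adjusted p = 0.0293) also fell. The SLIT receptor ROBO1 rose 1.27-fold to 1450 ± 61.6 (adjusted p = 0.0429). SEMA6B (0.0247 to 0.263) and SEMA5A (0.0151 to 0.161) were lost without any 1 of replicates 1 and 2 of either branch, and ROBO1 (0.0115 to 0.201) without any 1 library but negative replicate 3.

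At focal adhesions, where integrins are linked to actin, 1 of 31 genes tested rose and 1 fell, against 6 and 6 with the replicate block. Talin-2 (TLN2), which couples integrin tails to actin, fell 1.68-fold, from 561.7, 540.7 and 514.7 to 320.8, 324.7 and 314.6 (adjusted p = 0.00187). Parvin beta (PARVB), an actin-binding partner of integrin-linked kinase, rose from 151.5 ± 10.9 to 217.7 ± 8.51 (adjusted p = 0.0474). FBLIM1 (migfilin), which links filamin to focal adhesions, rose 3.18-fold from 39.8 ± 8.05 to 127.4 ± 12.2 (adjusted p = 0.00257). LIMA1 (EPLIN), an actin-bundling protein that also ties cadherin complexes to actin, fell 2.04-fold, from 2007, 1921 and 1984.7 to 929.2, 929.8 and 1034.1 (log2 fold change -1.03 ± 0.06, adjusted p = 0.000204). LIMCH1, an activator of non-muscle myosin II, rose 1.79-fold to 945.1 ± 38.6 (adjusted p = 0.000432), and PPFIBP1 (liprin-beta-1) rose 1.83-fold to 1141 ± 10.6 (adjusted p = 0.000263). Of these, only PARVB was lost in fits without 1 library: it failed without any 1 except negative replicate 3 (0.0397 to 0.244). With replicates 1 and 2 averaged, TLN2 (adjusted p = 0.132), FBLIM1 (0.0523) and PARVB (0.516) did not pass in limma. LIMA1 (0.0328), PPFIBP1 (0.0393) and LIMCH1 (0.0481) still passed in that averaged fit. None of 43 branched-actin and 32 actomyosin genes tested was called, while 10 and 7 of them passed with the replicate block. Over all genes 1.09% were called, and 14% with the block.

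Of the genes of the uptake route itself, RAB20, a Rab GTPase of maturing phagosomes and endosomes, differed by a large fold (ENSG00000139832; chr13:110523066-110561733). It stood at 19.2, 12.7 and 17.3 in the positive and 97.3, 96.7 and 88.3 in the negative replicates, a fall of 5.53-fold (log2 fold change -2.47 ± 0.19, adjusted p = 0.000539), and held without any 1 library. It was the only call among 37 Rab genes tested, of which 3 rose and 4 fell with the replicate block. The shares over all genes were 1.09% without and 14% with the block. The membrane-shaping ATPases EHD2, which stabilizes caveolae, and EHD3, which acts in endosomal recycling, both fell. EHD2 was at 314.4, 327.9 and 303.4 against 455.7, 439.6 and 465.6 (1.44-fold, adjusted p = 0.0146), and EHD3 at 24.6, 23.2 and 22.3 against 47.2, 58.9 and 62.2 (2.33-fold, adjusted p = 0.0177). They were the only called members among 38 genes for clathrin and membrane-bending endocytosis, and neither overlapped between branches. With the replicate block 3 of the 38 rose and 5 fell. EHD2 (0.0107 to 0.0963) was lost without any 1 of replicates 1 and 2 of either branch, and EHD3 (0.0251 to 0.102) without any 1 positive library or negative replicate 2.

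Among 27 phagocytic receptors and bridging molecules tested, 1 fell, none rose, and the median was -0.04. The gene that fell was GAS6, the bridging ligand of the TAM receptors, from 215.8, 224.2 and 247.8 to 145.4, 143.4 and 160.3 (1.53-fold, adjusted p = 0.0264). Its call was lost without any 1 of replicates 1 and 2 of either branch (0.0263 to 0.162), and 7.01% of its exon bases overlap GAS6-AS1 on the other strand. The TAM receptors AXL and MERTK did not pass, at 3297 ± 257 against 3239 ± 479 (adjusted p = 0.926) and 21.3 ± 2.25 against 22.4 ± 9.25 (0.996). Neither did the integrin subunits ITGB3 (688.1 ± 23.3 against 696.2 ± 47.1, adjusted p = 0.952) and ITGB5 (0.363), the scavenger receptor LRP1 (0.605), the hyaluronan receptor CD44 (0.615) or the caveolar coat protein CAV1 (7633 ± 419 against 7684 ± 631, adjusted p = 0.977). With the replicate block ITGB5 (3328 ± 210 against 3730 ± 262, adjusted p = 0.0434) and LRP1 (1120 ± 202 against 1287 ± 222, 0.0231) were called lower and CD44 (17162 ± 1850 against 15268 ± 2696, 0.0168) higher. In that fit 2 of the 27 list members rose and 7 fell. Over all genes, 1.09% were called without the block and 14% with it.

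Of 49 lysosomal genes tested, 1 rose and none fell, and 35 had a negative log2 fold change with a median of -0.05. Cathepsin Z (CTSZ), a lysosomal carboxypeptidase, rose 1.33-fold, from 419.1, 400 and 431.5 to 536.8, 536.6 and 585.6 (adjusted p = 0.0383), lost without any 1 library but negative replicate 3 (0.0172 to 0.199). LAMP1, the most used lysosomal membrane marker, was at 3748.9, 3710.9 and 3691 in positive and 4346.4, 4319.3 and 4364.7 in negative libraries. The groups are narrow and far apart for their width, yet the log2 fold change of -0.22 gave an adjusted p of 0.0757, and 0.00164 with the replicate block. With the block 1 lysosomal gene rose and 6 fell, near the share of 14% called over all genes in that fit. Without the block that share was 1.09%.

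Receptor tyrosine kinase genes held the largest fall among genes with a mean of at least 50. NTRK3, the neurotrophin-3 receptor (ENSG00000140538; chr15:87859751-88256768), was at 46, 24.2 and 38.6 in the positive and 382.5, 359.6 and 263.9 in the negative replicates. The fall was 9.21-fold (log2 fold change -3.20 ± 0.24, adjusted p = 0.000425), without overlap and without dependence on any 1 library. FGFR2, a fibroblast growth factor receptor, fell 1.46-fold to 168.2 ± 15.4 (adjusted p = 0.0456), lost without any 1 library except negative replicate 3 (0.0253 to 0.225). These were the only calls among 34 receptor tyrosine kinases and ligands tested, of which 6 rose and 3 fell with the replicate block. The shares over all genes were 1.09% without the block and 14% with it. PTK7, a catalytically inactive receptor kinase of Wnt and planar polarity signalling, fell 1.58-fold to 518 ± 20.7 (adjusted p = 0.0021). PLPP3, a membrane phosphatase that breaks down lysophosphatidic acid, fell 4.42-fold, from 200.4, 199.6 and 241.8 to 48.1, 41.1 and 53.8 (adjusted p = 0.000263). C1QL1, a secreted C1q-domain ligand of the adhesion receptor ADGRB3, fell 2.59-fold to 156.6 ± 15.1 (adjusted p = 0.000312), and the last 3 held without any 1 library.

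The connective tissue growth factor gene CTGF, a matricellular protein and a common target of YAP and TEAD, rose 2.58-fold, from 420.1, 403.5 and 286 to 943.1, 926.7 and 957 (log2 fold change 1.37 ± 0.13, adjusted p = 0.0021). The positive libraries were nearly equal, and negative replicate 3 was lowest. It was the only call among 29 YAP and TEAD targets tested, of which 21 had a positive log2 fold change with a median of 0.10, and 6 rose and 2 fell with the replicate block. Of 37 NF-kappaB target, chemokine and cytokine genes, 2 rose and none fell. For both lists, the shares called over all genes were 1.09% without and 14% with the block. The neutrophil attractant CXCL8 (interleukin-8) rose 2.15-fold, from 1429.8, 1401.4 and 950.2 to 2890.3, 3015.1 and 2160.6 (adjusted p = 0.0223), and the related CXCL2 rose by 0.48 on the log2 scale, from 385.4, 356.9 and 378.3 to 498.3, 578.8 and 491.2 (adjusted p = 0.0376). In both genes every positive library exceeded every negative one, and for CXCL8 replicate 3 was the lowest of each branch. CXCL8 (0.00412 to 0.151) was lost without positive replicate 1 or 2 or negative replicate 2, and CXCL2 (0.023 to 0.19) without any 1 library but negative replicate 3. With the replicate block 12 of the 37 rose and 3 fell, among them the chemokine CXCL1 (410.3 ± 42.5 against 269.9 ± 50.8) and the cytokine LIF (2920 ± 272 against 2063 ± 326), which had adjusted p 0.0994 and 0.0962 without it. CXCL1 and LIF were picked after their values were seen.

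The 250 bases before the RefSeq starts of these 3 genes are shown because they hold letter runs known from the factors just named, GGAATG for TEAD and GGNNTTTCC for NF-kappaB, each in capitals where it matched on either strand. The windows are chr6:131951373-131951622 on the minus strand for CTGF (RefSeq symbol CCN2), chr4:73740319-73740568 on the plus strand for CXCL8 and chr4:74099196-74099445 on the minus strand for CXCL2, all of GRCh38.p14 and printed along the gene.
CTGF: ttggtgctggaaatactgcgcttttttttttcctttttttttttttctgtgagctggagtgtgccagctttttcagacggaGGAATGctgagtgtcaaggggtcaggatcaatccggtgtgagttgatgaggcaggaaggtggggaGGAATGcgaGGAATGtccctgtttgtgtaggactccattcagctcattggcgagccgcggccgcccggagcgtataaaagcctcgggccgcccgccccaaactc
CXCL8: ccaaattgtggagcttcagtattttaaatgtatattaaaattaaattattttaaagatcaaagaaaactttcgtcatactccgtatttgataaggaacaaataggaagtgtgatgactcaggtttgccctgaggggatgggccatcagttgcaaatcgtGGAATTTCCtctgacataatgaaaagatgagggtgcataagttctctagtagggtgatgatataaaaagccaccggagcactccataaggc
CXCL2: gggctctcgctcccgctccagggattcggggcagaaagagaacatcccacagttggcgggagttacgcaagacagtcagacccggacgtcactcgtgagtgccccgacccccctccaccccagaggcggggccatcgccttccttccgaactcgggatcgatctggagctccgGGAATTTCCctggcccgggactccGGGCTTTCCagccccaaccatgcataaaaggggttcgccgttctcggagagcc
The CTGF window holds 3 matches to GGAATG, CXCL8 holds 1 match and CXCL2 holds 2 matches to GGNNTTTCC. Of 35116 windows of this length, 11.9% hold GGAATG and 5.48% hold GGNNTTTCC. Since the windows were chosen for holding these runs, the shares do not test whether the runs are more common in called genes. A match is a run of letters, and binding was not measured.

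Of the 38 listed G protein-coupled receptor, cAMP and phosphodiesterase genes tested, 3 rose and none fell, against 6 and 5 with the replicate block. All genes tested gave shares of 1.09% and 14%. The list does not hold ADGRL3, the serotonin receptor HTR1D (log2 fold change -0.68, adjusted p = 0.0135) or the pigment cell receptor GPR143 (-0.82, 0.0276), which fell. The 3 listed genes that rose were ADGRL2, the cAMP phosphodiesterase PDE7B (12.5, 9.7 and 6 to 37.4, 34.8 and 32.5, 3.57-fold, adjusted p = 0.0208) and the bradykinin receptor BDKRB2 (56.8 ± 8.50 to 126.4 ± 28.5, adjusted p = 0.0284). GPR15, a chemokine-type receptor known from T cell homing, rose 2.89-fold, from 69.4, 77.4 and 77.3 to 191.4, 208.7 and 257.8 (adjusted p = 0.00112). HTR1D (0.00412 to 0.0852) was lost without any 1 of replicates 1 and 2 of either branch and GPR143 (0.0347 to 0.157) without any 1 library but negative replicate 3. PDE7B (0.012 to 0.149) was lost without any 1 positive library or negative replicate 2 and BDKRB2 (0.0113 to 0.144) without any 1 library but negative replicate 3, while GPR15 held. SIRPB1, a signal-regulatory protein known from myeloid cells, rose 3.21-fold, from 78, 64.2 and 46.2 to 236.3, 214 and 157.3 (adjusted p = 0.00979), lost without positive replicate 1 (0.0709) or 2 (0.0786).

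The lactate exporter SLC16A3 (MCT4; ENSG00000141526, chr17:82228397-82261129) rose 3.48-fold, from 272.7, 193.4 and 167.6 to 829.8, 748.5 and 607.9 (log2 fold change 1.80 ± 0.18, adjusted p = 0.0023), and was the only call among 23 glycolysis and lactate genes, of which 4 rose with the replicate block. Over all genes tested 1.09% were called, and 14% with the block. CYP24A1, which inactivates vitamin D, rose 1.89-fold from 579 ± 69.4 to 1093 ± 28.5 (adjusted p = 0.00216), and HGD, an enzyme of tyrosine breakdown, 2.13-fold from 345.8 ± 18.5 to 739 ± 33.6 (adjusted p = 0.000263). All 3 held without any 1 library. The stress-induced chromatin regulator NUPR1 fell 2.37-fold, from 387.3, 366.6 and 612.1 to 146.5, 195 and 227.3 (adjusted p = 0.0328), the only call among 28 ATF4 and amino acid response genes, of which 2 rose and 6 fell with the replicate block. TSC22D3 (GILZ), a target of the glucocorticoid receptor, fell 2.34-fold, from 520.3, 529.3 and 753.5 to 221.3, 242.5 and 299.4 (adjusted p = 0.0115). For NUPR1 and TSC22D3 replicate 3 was the highest library of each branch. NUPR1 (0.0113 to 0.162) was lost without any 1 of replicates 1 and 2 of either branch and TSC22D3 without positive replicate 1 (0.0744) or 2 (0.0802).

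Some lists showed small shifts in 1 direction over most of their members while no listed member passed without the replicate block. With that block, 14% of all genes were called. Cytosolic ribosomal protein genes, which encode the translation machinery, had a negative log2 fold change in 58 of 60, with a median of -0.13 against 0.0015 over all genes, and 33 fell and none rose with the block. RPL30, for example, was at 4264.3, 4462.6 and 4625.6 in positive and 5334, 5448.2 and 5963.1 in negative libraries (adjusted p = 0.0561, and 0.000119 with the block). Of 36 nuclear genes of the respiratory chain 34 were negative (median -0.15), and 16 fell with the block. The cytochrome bc1 subunit CYC1 stood at 2754 ± 180 against 3468 ± 174 (adjusted p = 0.0644, and 0.000147 with the block). All 13 mitochondrially encoded protein genes were negative (median -0.13), and 5 fell with the block. Outside these lists, the mitochondrial tRNA gene MT-TY fell from 407.2 ± 14.9 to 282.9 ± 10.2 (adjusted p = 0.0163) and NDUFB9 of complex I fell as well (0.0226), and both calls were lost without any 1 of replicates 1 and 2 of either branch (0.00687 to 0.124 for MT-TY and 0.013 to 0.162 for NDUFB9). RPL30 and CYC1 have the smallest p of their lists, and they, MT-TY and NDUFB9 were picked after their values were seen. NDUFB9 lies between 100 and 150 Mb of chromosome 8, where 85.1% of 141 protein-coding genes were lower (median -0.18).

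The list median of the ribosomal genes, as a deviation from the mean of the 6 libraries on the log2 scale, was -0.09, -0.09 and -0.03 in the positive and 0.01, 0.04 and 0.14 in the negative replicates, so the branches did not overlap. For the respiratory chain, positive replicate 3 (0.01) lay level with negative replicate 1 (0.01), so there the branches met. Antigen presentation genes (23 tested, median -0.13) deviated by -0.03, -0.06 and -0.09 against 0.04, 0.06 and 0.10, and 6 fell with the block, among them B2M and HLA-B of the class I complex. NRF2 and ferritin genes, which defend against oxidants and store iron, had a median of -0.10, and with the block 2 rose and 9 fell of 29. Their deviations of -0.08, -0.06 and -0.00 in positive and -0.02, 0.00 and 0.22 in negative libraries overlapped, with negative replicate 3 far above the rest.

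Among the lists with a positive median and no called member were ERK feedback and output genes (0.14, 28 tested, 10 rose and 2 fell with the block), hypoxia response genes (0.14, 26 tested, 9 and 1), DNA replication genes (0.12, 46 tested, 10 and none) and mitosis genes (0.08, 47 tested, 11 and 1). The block called 14% of all genes. For replication, the positive deviations of 0.12, 0.11 and -0.06 overlapped the negative ones of 0.09, 0.09 and -0.30. Negative replicate 3 was the lowest library for replication, mitosis (-0.23) and hypoxia genes (-0.25), and within replicates 1 and 2 the mitosis median was 0.01 against 0.20 within replicate 3. The ERK phosphatase DUSP6, with 1058.6, 1171.3 and 1362.9 against 737.1, 759.6 and 957.2, did not overlap (adjusted p = 0.0783, and 1.04e-05 with the block).

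**Figure D3:**
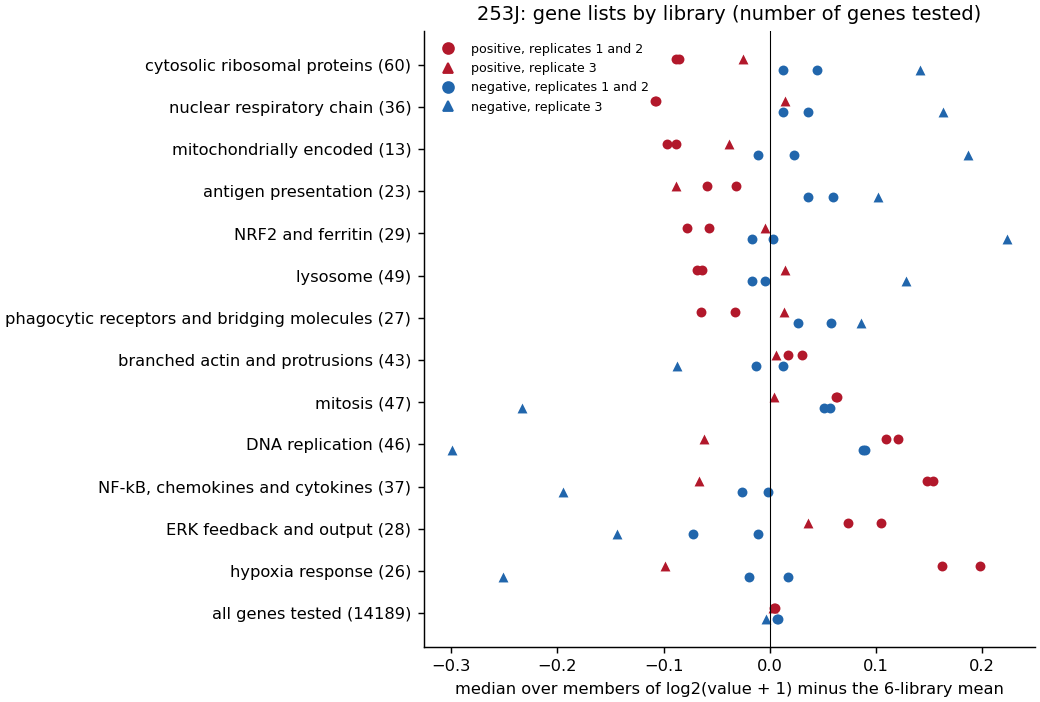
Median over the members of 13 gene lists and over all 14189 genes of log2(value + 1) minus the mean of the 6 libraries, for each positive (red) and negative (blue) library of 253J, with circles for replicates 1 and 2 and triangles for replicate 3. Ribosomal genes are lower in every positive library than in any negative one, and negative replicate 3 lies apart for replication, mitosis and hypoxia genes.

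Along the genome, positions being those of GENCODE 29 on GRCh38, some chromosomes were shifted as a whole. On chromosome 7 the median log2 fold change of 574 protein-coding genes was 0.12, 78.7% were higher in positive cells, 11 rose and 2 fell. On chromosome 13 the median of 208 genes was -0.13 and 84.6% were lower, with 4 risen and 5 fallen. Over all 14189 genes tested, of any gene type, 7148 were higher and 7041 lower in positive cells, and 1.09% were called. Shifts of the same sign appeared within replicates 1 and 2 and within replicate 3, at 0.12 and 0.14 on chromosome 7 and -0.15 and -0.12 on chromosome 13. Narrower stretches, chosen after the values were seen, were the first 10 Mb of chromosome 7 (median 0.28 over 60 genes, 96.7% higher), 100 to 150 Mb of chromosome 8 (-0.18 over 141, 85.1% lower) and 100 to 140 Mb of chromosome 12 (0.16 over 211, 86.7% higher). On the chromosome 8 stretch 6 genes fell and none rose, among them NDUFB9 (1211 ± 58.5 to 896.2 ± 54.4) and the translation initiation factor subunit EIF3E (3729 ± 164 to 2933 ± 69.6, adjusted p = 0.0252). EIF3E (0.0102 to 0.18) was lost without any 1 library but negative replicate 3. Gene copy number was not measured, and its part in these shifts was not tested.

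Called neighbours did not always move together. On chromosome 13, whose median was lower, COL4A1 and COL4A2 rose, and RAB20, which lies 9857 bases beyond the end of COL4A2, fell 5.53-fold. On chromosome 3 the adjacent genes CLDND1, GPR15 and CPOX, which spread over 98497912 to 98593723, all rose, with log2 fold changes of 0.40, 1.53 and 0.57. CLDND1 (0.0113 to 0.149) was lost without any 1 library but negative replicate 3, and CPOX (0.00462 to 0.164) without any 1 positive library or negative replicate 2.

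**Figure D4:**
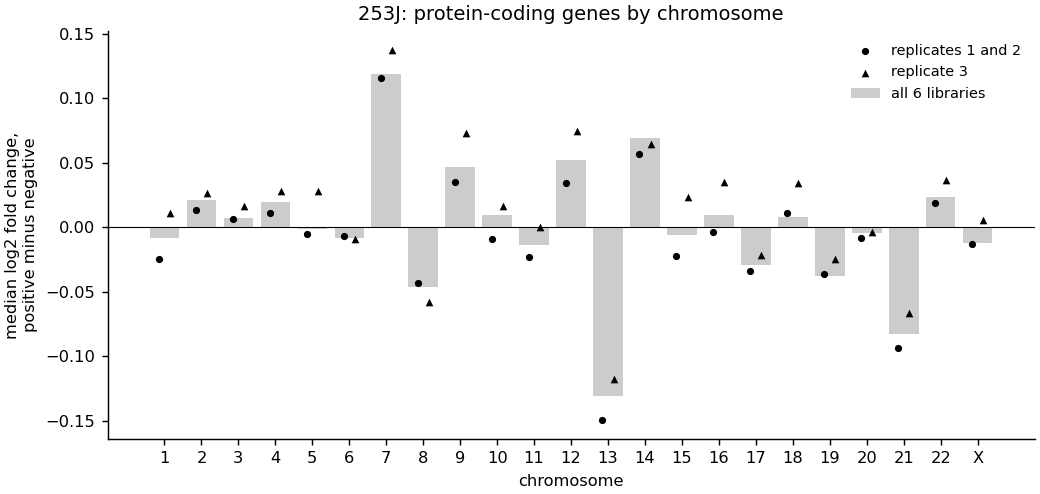
Median log2 fold change (positive minus negative) of protein-coding genes on each chromosome in 253J, as bars for all 6 libraries, circles for replicates 1 and 2 alone and triangles for replicate 3 alone. Chromosome 7 (0.12) and chromosome 13 (-0.13) stand farthest from 0, and circles and triangles lie on the same side there.

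The A375 melanoma branches, sorted in the same way, allow the question which 253J differences recur in another line. By the library number in the labels, whose low range holds replicates 1 and 2 and whose high range holds replicate 3 of 253J, the A375 branches are unbalanced: 1 of 3 positive and 2 of 3 negative libraries there are in the high range, and replicate 2 joins a low with a high number. The A375 values, the differences between the lines and their replicate block are therefore partly confounded with that number. Of 12509 genes tested in both lines, 116 were called in 253J and 1179 in A375, and 25 were called in both, which is 21.6% of the 253J and 2.12% of the A375 calls. In A375 as a whole 1447 of 14118 genes tested were called (10.2%). Of the 25, 9 were higher and 4 lower in both lines and 12 went opposite ways. The difference between the lines itself was called for 770 of the 12509 genes (6.16%). SLC16A3 rose in both (log2 fold change 1.80 in 253J and 2.40 in A375), as did PAPPA (1.41 and 1.32), PDE7B (1.84 and 1.83) and TENM3 (1.11 and 0.95). ADGRL2 rose in both, by 1.55 and 4.92, and the difference itself was called (adjusted p = 5.12e-05). Opposite calls included FBLN1 (1.62 and -1.83), CTSZ (0.41 and -0.77), IGFBP7 (-0.60 and 2.82) and NOV (-0.34 and 1.56). COL4A1 and COL4A2 were called in 253J and not in A375 (0.07 and -0.08), and the difference between the lines passed for both (adjusted p = 1.53e-07 and 8.63e-07). RAB20, NRP2, PLPP3 and NCAM1 likewise had a called difference and no call in A375.

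**Figure D5:**
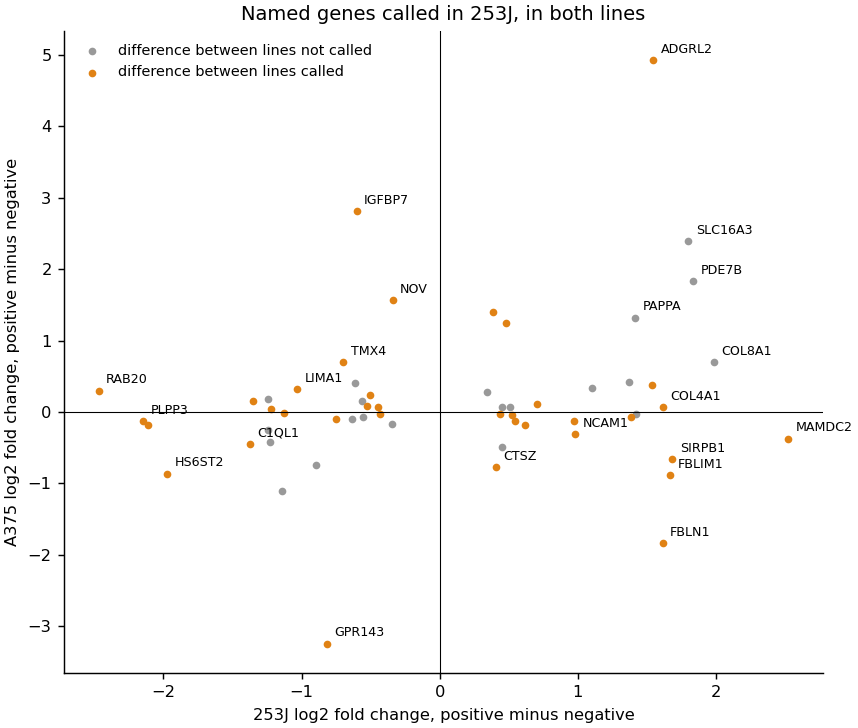
Log2 fold change, positive minus negative, in A375 against that in 253J for the named genes called in 253J and tested in both lines. Orange points have a called difference between the lines and grey ones do not. SLC16A3, PDE7B and PAPPA lie at similar values on both axes, and IGFBP7, NOV and FBLN1 lie on opposite sides of 0.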

How the data were processed

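Poly(A) RNA of the sorted branches was sequenced, and the authors deposited 1 table per line with normalized counts, a signal that corresponds to the count of each gene over a library-wide size factor, rounded to 0.1. Per the submitters' processing notes, cutadapt, STAR 2.4.2a, HTSeq, DESeq2 and GRCh38 were used. The annotation release and strand setting are not given in the sources used here. The lines were scaled separately, so each test was made within a line.

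Genes with a mean of at least 10 over the 6 libraries were tested with limma 3.58.1 (R 4.3.3) on log2(value + 1) with a mean-variance trend, no covariate and Benjamini-Hochberg adjustment at 0.05. Fold changes are on that scale and understate changes of low genes. Whole reads were recovered from the steps of the deposited values within a tolerance of 0.055, and edgeR 4.0.16 and DESeq2 1.42.0 were run on them as alternatives. To compare the lines, the positive-negative difference of A375 was subtracted from that of 253J as a limma contrast over the 12 libraries. Depth limits low genes most, and reads without molecular identifiers are not independent molecules. The fits were tested on simulated data. Positions are from GENCODE 29 (GRCh38), which matched 99.6% of the 19423 gene IDs.

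Replicate numbers were taken from the labels. Deviations from the branch means correlated between same-numbered libraries at 0.286, 0.187 and 0.496 for replicates 1, 2 and 3. The same correlation was not computed for differently numbered libraries, so whether the numbers pair the samples was not tested. Replicates 1 and 2 of a branch differed little (chi-square per degree of freedom 1.25 and 1.29, against 7.17 to 17.1 for either with replicate 3), and p-values of the replicate block may therefore be too small. The labels do not say what sets replicate 3 apart.

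Named genes were up to 15 called protein-coding genes in each direction, ranked by size of change, whose mean reached 50 and whose branches did not overlap, up to 3 called genes with the smallest p per list, the 10 called genes with the smallest p in each direction with a mean of at least 1000, and fixed line markers and uptake readouts. Some of these are not described, and some genes outside the rule are described because they complete a list. Others outside the rule were picked after their values were seen, whether or not this is said where they are described. They include CHST11, CSGALNACT1, HPSE, CHST15, PAPSS2, TENM3, LIMCH1, PPFIBP1, PTK7, HTR1D, CYP24A1, HGD, CLDND1, CPOX, DUSP6, DUSP9 and DUSP15. The comparison, the lists and the tests were chosen with earlier results of these data known. Alternatives covered the pseudocount, the minimum, scaling, the tool, blocks, averaging of replicates 1 and 2, and leaving out each library.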

Additional observations from a re-analysis of the deposited data

Results flagged for a closer look

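For 38 of the 71 named genes tested in both lines, the difference between positive and negative cells was itself different in 253J and A375 at an adjusted p under 0.05 in the limma contrast. Over all 12509 genes tested in both lines this held for 770 (6.16%). Each value below is the log2 fold change in 253J minus that in A375.

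Among matrix and matrix-associated genes the difference was 1.55 for COL4A1, 1.46 for COL4A2, 0.67 for LAMA1, 3.45 for FBLN1, 2.89 for MAMDC2 and 0.59 for ANTXR1. It was -1.11 for COL6A1, -1.93 for LTBP1, -3.42 for IGFBP7, -1.90 for NOV and -1.11 for HS6ST2. FBLN1, IGFBP7 and NOV were called in opposite directions in the lines.

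For adhesion and actin-linked genes the difference was 1.29 for NCAM1, 2.55 for FBLIM1 and 0.57 for PARVB, and -0.65 for TLN2, -1.36 for LIMA1, -1.51 for NRP2 and -3.38 for ADGRL2. ADGRL2 rose in both lines, more in A375. For genes of endocytosis, lysosomes and vesicles it was 1.18 for CTSZ, -2.77 for RAB20, -0.61 for EHD2, -1.27 for EHD3 and -0.28 for LAMP1. CTSZ rose in 253J and fell in A375, and LAMP1 was not called in 253J.

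Signalling genes gave -0.76 for GNAI1, -1.02 for CACNA2D1, -2.02 for PLPP3, -0.93 for C1QL1, 1.09 for ID4, 2.34 for SIRPB1 and 1.04 for PPARG. GNAI1 and CACNA2D1 rose in both lines, and PPARG was not called in 253J. GPR143, a pigment cell receptor that fell in both lines, gave 2.42.

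The remaining differences were 1.16 for NCKAP5, 0.80 for SCRN1, 0.47 for KNTC1, -0.75 for MPP1, -0.41 for NDUFB9, -0.52 for RHOBTB3 and -1.40 for TMX4.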

How the results depend on the processing

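The count of 155 called genes was 154 and 159 with pseudocounts of 0.5 and 4, 132 with a minimum mean of 50, 160 with TMM scaling, 163 with edgeR and 155 with robust variance estimates. It was 58 with no minimum, where 19423 genes share the adjustment, 301 with DESeq2, 1991 with the replicate block, 2645 with the number set (replicates 1 and 2 against replicate 3) as a block, 2977 in replicates 1 and 2 alone and 21 with replicates 1 and 2 averaged, which leaves fewer samples. Leaving out 1 library gave 40 to 369, lowest without positive replicate 2 and highest without negative replicate 3. The cause was not tested. Of the 70 named genes called, all kept the call with either block, 69 with DESeq2, 23 with no minimum and 17 with replicates 1 and 2 averaged. No named gene reversed under any of these. Of the 16 named genes not called, 5 passed with the replicate block. Of the 71 named genes tested in both lines, the difference between lines was called for 38, for 57 with the replicate block and for 61 with the number set as a block.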
